A study of Mus musculus with 16 samples.

Results

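The effect of a CSF1-R inhibitor on injured quadriceps, the muscle group that extends the knee, was read from 8 of the 16 RNA-seq libraries of the series. These are the libraries titled as ACL-transected quadriceps: 4 from mice given the inhibitor (injured inhibitor 1 to 4) and 4 from mice given placebo (injured placebo 1 to 4), compared without pairing. In the first group the anterior cruciate ligament (ACL), which holds the knee joint stable, was cut and the mice received the inhibitor at 40 mg/kg in drinking water for 7 days. In the second the ligament was cut in the same way and the drinking water held 0.5% sucrose for the same 7 days. The injury is therefore shared by both groups, and the labels give no strain, sex, age, genotype, name of the compound or hour of tissue collection. The other 8 libraries are healthy quadriceps under the same 2 treatments, and they enter the fit to help estimate the spread between libraries. The names of the deposited columns pair each injured with a healthy quadriceps, and such a pair was taken to be the legs of 1 mouse.

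CSF1R is a receptor tyrosine kinase of monocytes, macrophages and their relatives. Its ligands CSF1 and IL34 keep these cells alive and let them divide, so that blocking the receptor is a common way to lower macrophage numbers in tissue. In injured muscle, macrophages clear debris and supply signals to muscle stem cells, fibroblasts and vessels. Quadriceps fibres lose mass after a torn ACL, and in mice most of them are fast-twitch fibres.

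The 8 injured libraries held a total of 20.12 to 24.25 M counts (M stands for mega) with the inhibitor and 20.98 to 24.47 M with placebo. Levels are given as CPM, a gene's counts per M of the scaled library total, and 3 counts, taken as the limit of detection, came to 0.124 to 0.159 CPM with the inhibitor and 0.109 to 0.134 CPM with placebo. Such limits cover counting error only. Muscle genes were abundant in all 8 libraries, with skeletal actin (Acta1) at 23800 to 34600 CPM and creatine kinase (Ckm) at 13800 to 20300 CPM. Total counts, genes detected, the share of the 10 most abundant genes and the share of mitochondrial genes gave p of 0.257 to 0.629 between the groups in a two-sided exact permutation test (n = 4 each), where 0.0286 is the smallest possible. Injured placebo 2 and 3 stood apart. Prg4, which encodes lubricin of the joint surface, had 13, 10.4, 11.6 and 9.76 CPM in the inhibitor libraries, against 12.8, 220.3, 286 and 6.55 CPM in placebo libraries 1 to 4. Col2a1, the collagen of cartilage, had 0.191, 0.318, 0.124 and 0 CPM in the inhibitor libraries, against 0.0447, 2.44, 2.73 and 0.672 CPM in the placebo libraries. Summed over 14 joint lining and cartilage markers, the level was 127.7 to 152.1 CPM in the inhibitor libraries, against 166, 442.1, 501.3 and 116.3 CPM in placebo 1 to 4. Results are therefore also given from a fit without these libraries and without healthy placebo 4 and healthy inhibitor 1, where Prg4 was likewise high. In that fit, called the fit without the Prg4-high libraries below, placebo 1 and 4 alone represent the injured placebo group.

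No gene passed an adjusted p of 0.05 (edgeR quasi-likelihood test, Benjamini-Hochberg over 15411 tested genes), which is 0% of them, and the smallest adjusted p was 0.100. At an unadjusted p under 0.05 there were 2289 genes (14.9%), 897 of them higher with the inhibitor (5.82%) and 1392 lower (9.03%). The count of calls depended on the tool and on 1 library: DESeq2 called 248 genes, 98 higher and 150 lower, and limma-voom with quality weights called 1229. The within-animal correlation fit called 0, and edgeR without injured placebo 4 called 39. All 4 inhibitor libraries lay above all 4 placebo libraries in 427 genes (2.77%) and below them in 442 genes (2.87%), together 5.64%. Without the Prg4-high libraries edgeR called 0 of 15786 genes, and 6.33% had an unadjusted p under 0.05, 517 higher (3.28%) and 482 lower (3.05%). In that fit 50.5% of all genes were higher and 49.5% lower. With all libraries the median log2 difference over all tested genes was -0.0205, inhibitor minus placebo, and all gene differences below are on this scale, each with its standard error (SE). With all libraries 46.9% of all tested genes were higher and 53.1% lower. Each list count below is to be set beside these shares over all genes. Since edgeR with all libraries called no gene, the values that follow describe these libraries.

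The genes described first are the 12 higher and 12 lower with the smallest p among those with all 4 libraries of each group apart. Their adjusted p (edgeR) lay between 0.100 and 0.174. They were chosen by this separation and their small p, so their number is no result. Without the Prg4-high libraries the differences were 0.33 to 0.83 for those higher and -1.51 to -0.36 for those lower; the choice of groups that do not overlap fixes these signs.

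Kcnc1, a voltage-gated potassium channel of fast-firing cells (ENSMUSG00000058975, chromosome 7 from 46396497 to 46438704 on GRCm38), had 173, 162, 180.3 and 169.8 CPM in the inhibitor libraries, against 105, 113, 95.9 and 137 CPM in the placebo libraries. The lowest inhibitor library was above the highest placebo library, and the log2 difference was 0.60 ± 0.10 (SE, n = 4 each; adjusted p = 0.100, edgeR). Vgll2, a muscle cofactor of TEAD transcription factors (ENSMUSG00000049641, chromosome 10 from 52022502 to 52028471), had 165, 136, 126 and 119 CPM with the inhibitor, against 62.2, 56.8, 58.1 and 91.8 CPM with placebo. The groups did not overlap, and the difference was 1.02 ± 0.17 with all libraries and 0.83 ± 0.19 without the Prg4-high libraries. Trp53inp2, an autophagy regulator abundant in muscle, had 592, 571, 545 and 529 CPM in the inhibitor libraries, against 391, 361, 348 and 429 CPM in the placebo libraries. Synpo2, an actin-binding protein of the Z-disc, differed by 0.53 ± 0.11, and Amot, a scaffold of the Hippo pathway, by 0.64 ± 0.12. Cox10, which makes the heme of cytochrome oxidase, had 48.6, 50.8, 50.8 and 48.4 CPM in the inhibitor libraries, against 39.3, 31.4, 31.8 and 38.3 CPM in the placebo libraries. Aars2, the mitochondrial alanyl-tRNA synthetase, had 22.3, 21.1, 22.5 and 20.8 CPM with the inhibitor and 15.7, 15.6, 14.4 and 16.7 CPM with placebo. The inhibitor values of both genes spanned a narrow range above every placebo value. The remaining higher genes were Pon3, a lactonase (0.63 ± 0.11), Tet2, which oxidizes methylcytosine (0.65 ± 0.13), the zinc finger factor Hivep1 (0.38 ± 0.07), Armcx4 (0.66 ± 0.13) and the clock repressor Cry1 described with the clock genes.

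On the lower side, Apobec3, a cytidine deaminase that restricts retroviruses (ENSMUSG00000009585, chromosome 15 from 79891659 to 79915906), had 4.16, 2.81, 2.31 and 4.54 CPM in the inhibitor libraries, against 8.98, 10.5, 11.3 and 7.43 CPM in the placebo libraries. Its difference was -1.47 ± 0.27 (SE, n = 4 each; adjusted p = 0.100, edgeR) and -1.24 ± 0.29 without the Prg4-high libraries. Apod, a lipid-binding lipocalin, had 30.8, 23.7, 26.6 and 24.2 CPM in the inhibitor libraries, against 44.7, 34.1, 46.2 and 39.5 CPM in the placebo libraries. Placebo 2 and 3 were the lowest and the highest placebo library for Apod, and it differed by -0.64 ± 0.14 with all libraries and -0.67 ± 0.16 without the Prg4-high ones. Klf6, an early-response transcription factor, had 21.6, 21.2, 18.1 and 20.1 CPM with the inhibitor and 30.7, 37.9, 40.0 and 24.6 CPM with placebo. Ctsc, a lysosomal protease that activates serine proteases of immune cells, had 29.2, 32.8, 35.6 and 32.2 CPM with the inhibitor and 42.9, 70.4, 73.4 and 42.9 CPM with placebo. For both, placebo 2 and 3 were the highest libraries, and the difference without the Prg4-high libraries was -0.45 ± 0.15 for Klf6 and -0.40 ± 0.11 for Ctsc. Srm, which makes spermidine, differed by -0.98 ± 0.21, Slc7a8, a neutral amino acid transporter, by -0.81 ± 0.18, and the translation factor Eif1a by -0.61 ± 0.14, and by -0.36 ± 0.15 without the Prg4-high libraries. Coq10b, which binds coenzyme Q, differed by -1.31 ± 0.27, the stress gene Trp53inp1 by -0.56 ± 0.13 and Fam124a by -0.995 ± 0.23. Per1 and Bhlhe40 completed the 12 and belong to the clock.

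**Figure D1:**
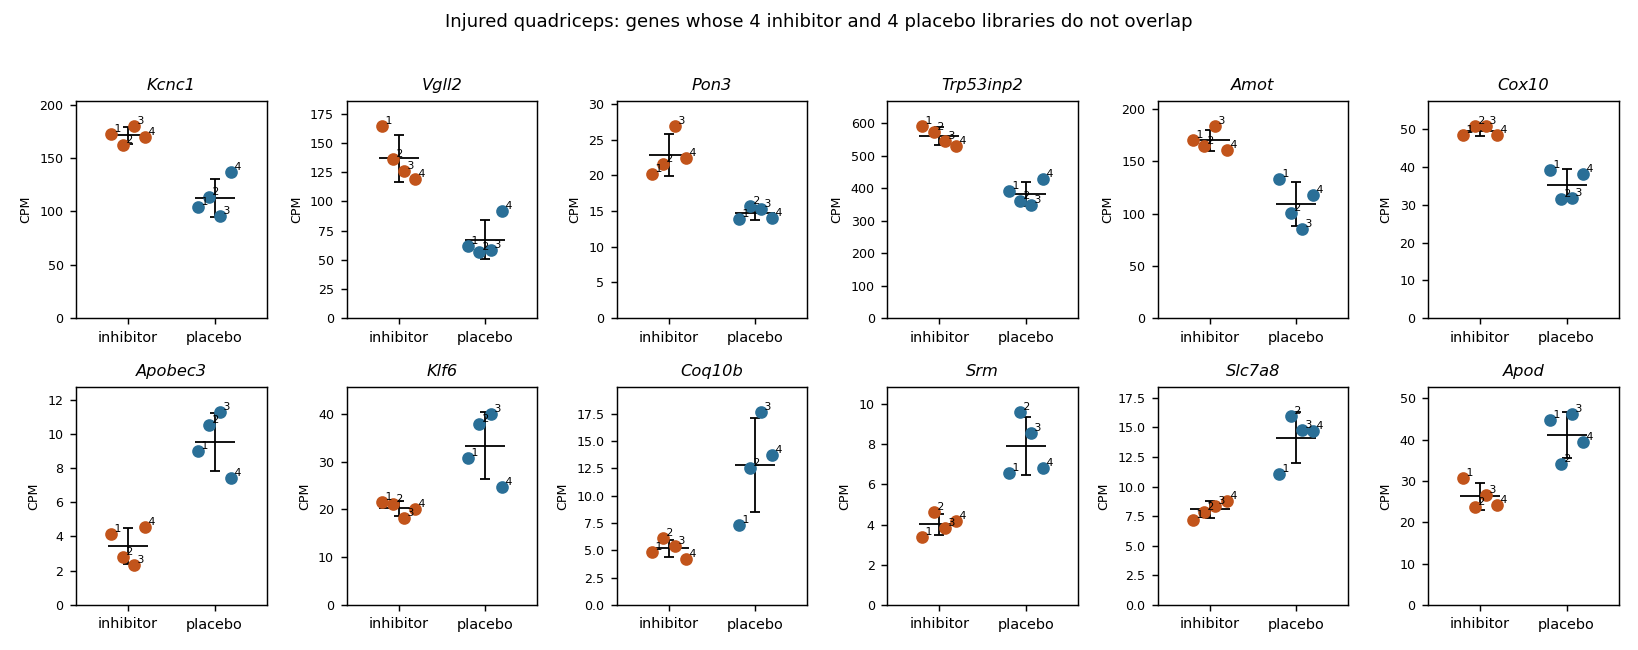
CPM of 12 genes in the 4 injured inhibitor libraries (orange, left) and the 4 injured placebo libraries (blue, right), numbered by replicate, with the mean and SD as black marks. The 6 genes in the upper row, among them Kcnc1 and Vgll2, were above every placebo library in all inhibitor libraries, and the 6 in the lower row, among them Apobec3 and Apod, were below.

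The receptor gene itself had its high levels in placebo 2 and 3. Csf1r had 9.51, 6.03, 11.6 and 7.85 CPM in the inhibitor libraries, against 16.4, 63.8, 60.0 and 10.4 CPM in the placebo libraries. The groups overlapped, and the difference was -2.10 ± 0.81 (SE, n = 4 each; adjusted p = 0.267, edgeR) with all libraries and -0.61 ± 0.64 without the Prg4-high ones. The ligand genes were closer: Csf1 had 12.2, 8.94, 14.0 and 15.5 CPM with the inhibitor and 8.94, 20.4, 20.6 and 13.1 CPM with placebo. Its sign turned, with -0.31 ± 0.30 over all libraries and 0.21 ± 0.23 without the Prg4-high ones. Il34 differed by -0.26 ± 0.24. In bulk tissue, fewer cells of a type and less RNA per cell cannot be told apart, and this holds for every cell marker below.

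Macrophage genes were lower as a group. All 19 tested pan-macrophage markers were lower (53.1% of all tested genes were), 19 at an unadjusted p under 0.05 (9.03% of all genes, lower), and 4 with groups that do not overlap (2.87%). Their median difference was -2.65, and -0.59 without the Prg4-high libraries. There all 18 tested members were lower and 2 had an unadjusted p under 0.05 (49.5% and 3.05% of all genes). Summed over the list, the level was 75.46, 43.51, 123.9 and 58.23 CPM in the inhibitor libraries, against 119.6, 860.9, 754.5 and 82.01 CPM in placebo 1 to 4. The high placebo libraries were the 2 that were also high in joint markers, and the part of joint tissue in the difference was not tested. Placebo 1 and 4 lay within the inhibitor range.

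Single markers showed the same split. Itgam, the CD11b integrin chain, had 1.58, 0.741, 1.28 and 0.933 CPM in the inhibitor libraries, against 3.17, 23.7, 15.9 and 2.14 CPM in the placebo libraries. Its groups did not overlap, and it differed by -3.30 ± 1.00, and by -1.22 ± 0.50 without the Prg4-high libraries. Spi1, the PU.1 factor of myeloid cells, differed by -2.53 ± 0.78 and -0.67 ± 0.53 in the same pair of fits. Adgre1, the F4/80 antigen, had 2.01, 0.212, 2.6 and 1.99 CPM with the inhibitor and 4.87, 30.5, 19.5 and 2.6 CPM with placebo. Its groups met without overlap at 2.6 CPM, the rounded level of both inhibitor 3 and placebo 4. Mertk, a receptor for dying cells, had 2.06, 1.69, 2.6 and 3.31 CPM with the inhibitor and 5.36, 4.76, 4.85 and 3.53 CPM with placebo. Unlike Itgam, Mertk was not higher in placebo 2 and 3 than in placebo 1. Its difference was -0.93 ± 0.30 with all libraries (adjusted p = 0.228 over all genes, edgeR) and -0.87 ± 0.30 without the Prg4-high ones. Mertk was chosen after its values were seen, and the median of its list went from -2.65 to -0.59 without those libraries.

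Of 20 resident macrophage markers, 18 were lower, with a median of -1.12. At an unadjusted p under 0.05 there were 11 lower (9.03% of all genes), and 7 had no overlap (2.87%). In the fit without the Prg4-high libraries 13 of 19 were lower, with a median of -0.31. The scavenger receptor Cd163 had 4.73, 2.33, 5.86 and 6.02 CPM in the inhibitor libraries, against 12.8, 6.07, 14.6 and 8.31 CPM in the placebo libraries. F13a1, the factor XIII subunit of tissue macrophages, had 7.03, 4.13, 5.49 and 5.9 CPM with the inhibitor and 18.1, 32.9, 59.3 and 8.81 CPM with placebo. Both had groups that did not overlap, and without the Prg4-high libraries they differed by -1.15 ± 0.46 for Cd163 and -1.25 ± 0.43 for F13a1. Both were further from 0 than the list median of -0.31 in that fit, and Cd163 was chosen after its values were seen. The mannose receptor Mrc1 differed by -1.53 ± 0.48, the chemokine Pf4 by -2.48 ± 0.70 and the complement gene C1qc by -2.63 ± 0.88. In the same order they were at -0.68 ± 0.38, -0.95 ± 0.44 and -0.85 ± 0.43 without the Prg4-high libraries. C1qa, a partner of C1qc in the same complement protein, was at -2.60 ± 1.02 and -0.06 ± 0.40. Complement genes as a list numbered 15 lower of 18, with a median of -0.66, and -0.39 without the Prg4-high libraries.

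Among genes of repair macrophages, which take up lipid and debris, Trem2 and Lgals3 had their high levels in placebo 2 and 3. Trem2, a lipid receptor of such cells, had 0.191, 0.318, 0.496 and 0.0424 CPM in the inhibitor libraries, against 0.447, 16.9, 12.95 and 0.0839 CPM in the placebo libraries. Its levels in inhibitor 4 and placebo 4 were below the limit of detection. Lgals3, a galectin of phagocytes, had 2.15, 1.27, 3.18 and 1.91 CPM with the inhibitor and 2.81, 81.7, 60.6 and 1.43 CPM with placebo. For both genes placebo 1 and 4 lay within the inhibitor range, and the difference of Lgals3 was -4.09 ± 1.35 with all libraries and 0.02 ± 0.40 without the Prg4-high ones. The list had 14 of 17 members lower, 9 at an unadjusted p under 0.05 (53.1% and 9.03% of all genes). Its median was -0.69, and -0.13 without the Prg4-high libraries. Its summed level, in which abundant members weigh most, was 3097, 2702, 2313 and 2798 CPM in the inhibitor libraries, against 3416, 2467, 2544 and 2284 CPM in the placebo libraries, so that the groups overlapped and placebo 1 was highest. Monocyte markers were all lower (11 of 11, 5 at an unadjusted p under 0.05, against 53.1% and 9.03% of all genes). Their medians were -2.62 and -0.43 in these fits. Ccr2, the chemokine receptor of inflammatory monocytes, had 2.06, 1.85, 7.81 and 2.63 CPM with the inhibitor and 5.94, 54.9, 49.0 and 4.7 CPM with placebo. Ly6c2 differed by -3.01 ± 0.90 with all libraries and -0.55 ± 0.90 without the Prg4-high ones, but its reads may be shared with its near-identical neighbour Ly6c1.

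Antigen presentation genes had the same high libraries. Of 13 MHC class II and dendritic cell genes 12 were lower, 11 at an unadjusted p under 0.05 (53.1% and 9.03% of all genes). Their median was -1.70, and -0.40 without the Prg4-high libraries. Their summed level was 57.95 to 150.1 CPM in the inhibitor libraries, against 114.2, 446.2, 600.7 and 131.1 CPM in placebo 1 to 4. H2-DMa, which loads peptide on class II molecules, had 1.58, 1.11, 2.93 and 1.4 CPM with the inhibitor and 2.77, 12.3, 13.5 and 4.74 CPM with placebo. It differed by -2.24 ± 0.51, and by -1.09 ± 0.36 without the Prg4-high libraries. H2-Ab1, a class II chain, was at -2.07 ± 0.71 and -0.46 ± 0.43.

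All 27 interferon-stimulated genes were lower, with a median of -0.84. At an unadjusted p under 0.05 there were 15 (9.03% of all genes, lower), and 2 had no overlap (2.87%). With the Prg4-high libraries left out 18 of 27 were lower, with a median of -0.07. Rsad2, the antiviral viperin, had 3.54, 4.29, 5.33 and 4.33 CPM in the inhibitor libraries, against 8.36, 6.73, 7.54 and 5.83 CPM in the placebo libraries. Its groups did not overlap, and the difference was -0.70 ± 0.23 with all libraries and -0.69 ± 0.26 without the Prg4-high ones. Cxcl10, a chemokine for T cells, had 0.287, 0.0529, 0.165 and 0.848 CPM with the inhibitor and 3.44, 2.76, 3.05 and 0.168 CPM with placebo. Placebo 1, 2 and 3 were above every inhibitor library. Placebo 4 and inhibitor 3 were near the limit of detection, and inhibitor 2 was below it. Irf7, a regulator of interferon production, had 4.35, 2.17, 3.35 and 3.31 CPM with the inhibitor and 2.81, 26.4, 20.8 and 3.69 CPM with placebo. Like Bst2 (-1.43 ± 0.43, and -0.20 ± 0.23 without the Prg4-high libraries), Irf7 had its 2 highest levels in placebo 2 and 3. Lysosome and phagocytosis genes were also all lower (27 of 27, 16 at an unadjusted p under 0.05, 5 without overlap). Over all genes these shares were 53.1%, 9.03% and 2.87%. The list median was -0.58, and -0.11 without the Prg4-high libraries. Cd63, a tetraspanin of lysosomes, differed by -0.72 ± 0.18 with all libraries and -0.30 ± 0.14 without the Prg4-high ones. Hexa, a hexosaminidase, was at -0.48 ± 0.14 and -0.14 ± 0.10 in the same fits.

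**Figure D2:**
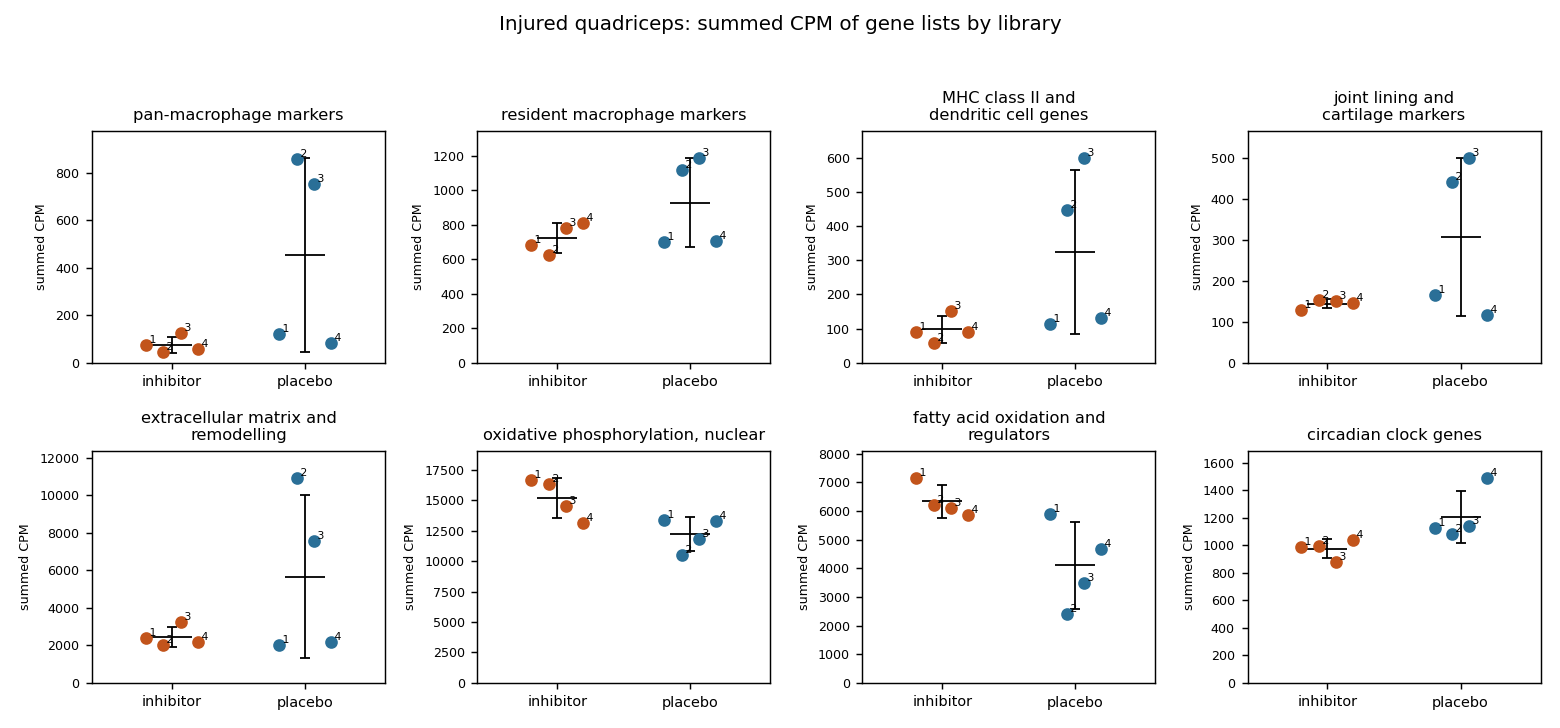
Summed CPM of the tested members of 8 gene lists in the injured inhibitor libraries (orange, left) and injured placebo libraries (blue, right), numbered by replicate, with mean and SD. Placebo 2 and 3 carry the high levels of macrophage, MHC class II, joint and matrix genes, with 860.9 and 754.5 CPM of pan-macrophage markers, while the oxidative and fatty acid lists are lowest in the same libraries.

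Genes of mitochondrial energy supply were higher with the inhibitor, each by a small amount. All 48 nuclear genes of oxidative phosphorylation had a positive difference (46.9% of all tested genes did), 28 at an unadjusted p under 0.05 (5.82% of all genes, higher) and 11 without overlap (2.77%). Their differences ran from 0.12 to 0.53, with a median of 0.29. Without the Prg4-high libraries 47 of 48 were higher, 12 at an unadjusted p under 0.05 (50.5% and 3.28% of all genes). The median there was 0.21. Their summed level was 16710, 16350, 14560 and 13130 CPM in the inhibitor libraries, against 13360, 10480, 11830 and 13310 CPM in the placebo libraries. Placebo 2 and 3 were lowest, and inhibitor 4 lay below placebo 1 and 4. These subunits share protein complexes and are not independent of each other. Cyc1, the cytochrome c1 of complex III, had 367, 373, 359 and 306 CPM with the inhibitor and 253, 240.4, 264 and 293 CPM with placebo. Cox5a, a subunit of cytochrome oxidase, had 317, 290.1, 258 and 245 CPM with the inhibitor and 201, 186, 214 and 234 CPM with placebo. Atp5d, a subunit of ATP synthase, had 319, 316, 308 and 279 CPM with the inhibitor and 203, 231, 253 and 261 CPM with placebo. In all 3 genes every inhibitor library was above every placebo library, and the differences were 0.42 ± 0.11, 0.41 ± 0.11 and 0.37 ± 0.10 in this order (adjusted p of 0.180 to 0.201, edgeR). Without the Prg4-high libraries they were 0.37 ± 0.12, 0.35 ± 0.13 and 0.40 ± 0.12.

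All 20 genes of the tricarboxylic acid cycle were higher, with a median of 0.28, and 0.09 without the Prg4-high libraries. At an unadjusted p under 0.05 there were 10 (5.82% of all genes, higher), and 3 had no overlap (2.77%). Dlst, a subunit of ketoglutarate dehydrogenase, had 239.8, 251, 255 and 225 CPM in the inhibitor libraries, against 204, 161, 180.4 and 211 CPM in the placebo libraries, and Suclg1, a subunit of succinate-CoA ligase, differed by 0.26 ± 0.08. Of 33 genes of fatty acid oxidation and its regulators 32 were higher, 20 at an unadjusted p under 0.05 and 7 without overlap. Over all genes these shares were 46.9%, 5.82% and 2.77%. The list median was 0.44, and 0.18 without the Prg4-high libraries. Esrra, a nuclear receptor that switches on mitochondrial genes, had 108, 94.5, 91.7 and 94.7 CPM with the inhibitor and 54.1, 68.8, 74.5 and 81.4 CPM with placebo. It differed by 0.48 ± 0.14 with all libraries and 0.52 ± 0.18 without the Prg4-high ones. Its coactivator Ppargc1a had 43.7, 40.0, 37.6 and 33.7 CPM with the inhibitor and 34.4, 20.4, 20.1 and 31.8 CPM with placebo. There the groups overlapped, placebo 2 and 3 were lowest, and 0.54 ± 0.17 came down to 0.23 ± 0.14. Pdk4, which turns muscle from glucose to fat as fuel, had 1195, 785, 1395 and 1089 CPM with the inhibitor and 510.0, 77.0, 298 and 599.8 CPM with placebo, a difference of 1.59 ± 0.55, and 1.01 ± 0.52 without the Prg4-high libraries. Acadvl, the first enzyme of long-chain fat oxidation, differed by 0.52 ± 0.15 and the electron carrier Etfa by 0.46 ± 0.14, and by 0.33 ± 0.14 and 0.30 ± 0.13 without the Prg4-high libraries.

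Of 15 mitochondrially encoded genes 14 were higher, 2 at an unadjusted p under 0.05 (46.9% and 5.82% of all genes). Their median was 0.32, and 0.07 without the Prg4-high libraries. The gene mt-Cytb differed by 0.44 ± 0.17, and by 0.27 ± 0.19 without those libraries. The share of all counts from mitochondrial genes was 13.3 to 18.53% with the inhibitor and 10.69 to 17.73% with placebo (two-sided exact permutation p = 0.257, n = 4 each). Glycolysis and glucose uptake genes were higher in 21 of 25, 4 at an unadjusted p under 0.05 (46.9% and 5.82% of all genes). Their median was 0.16. The insulin-responsive glucose transporter Slc2a4 had 538, 524, 510.2 and 506 CPM with the inhibitor and 409, 384, 393 and 521 CPM with placebo.

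**Figure D3:**
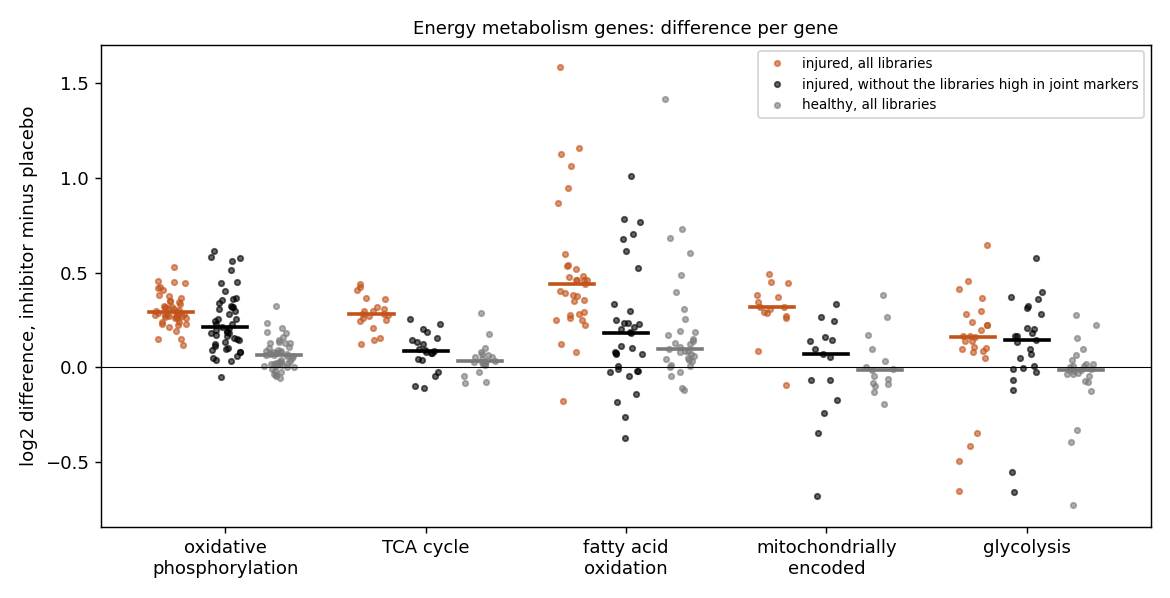
Log2 difference, inhibitor minus placebo, of each tested gene of 5 energy metabolism lists, with the list median as a bar: injured quadriceps with all libraries (orange), injured quadriceps without the Prg4-high libraries (black) and healthy quadriceps (grey). For nuclear oxidative phosphorylation genes the medians were 0.29, 0.21 and 0.06.

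Several genes of immature and denervated fibres also had their highest levels in placebo 2 and 3. Of 24 neuromuscular junction and denervation genes 21 were lower, with a median of -0.22, and -0.17 without the Prg4-high libraries. At an unadjusted p under 0.05 there were 10 lower and 2 higher (9.03% and 5.82% of all genes). Chrna1, a subunit of the muscle acetylcholine receptor, had 16.8, 20.01, 18.3 and 13.4 CPM in the inhibitor libraries, against 30.3, 43.3, 56.8 and 14.4 CPM in the placebo libraries. Placebo 1, 2 and 3 lay above every inhibitor library and placebo 4 within their range. It differed by -1.08 ± 0.31, and by -0.38 ± 0.26 without the Prg4-high libraries. Satellite cell and myogenesis genes went both ways, with 8 of 26 higher and 18 lower. At an unadjusted p under 0.05 there were 2 and 6 of them (5.82% and 9.03% of all genes). Their median was -0.22, and 0.09 without the Prg4-high libraries, where 18 of 25 were higher. Myog, a myogenic factor, had 3.87, 3.6, 7.27 and 4.88 CPM with the inhibitor and 5.67, 44.6, 33.7 and 2.94 CPM with placebo. Myh3, the embryonic myosin heavy chain, had 7.6, 4.08, 9.66 and 2.93 CPM with the inhibitor and 12.7, 145, 252 and 3.06 CPM with placebo. Myh8, the neonatal form, Ncam1, an adhesion protein of denervated fibres, and Runx1 were likewise highest in placebo 2 and 3. Without the Prg4-high libraries Myog differed by 0.20 ± 0.32, Myh3 by -0.37 ± 0.63, Myh8 by 0.16 ± 0.27, Ncam1 by 0.26 ± 0.24 and Runx1 by -0.55 ± 0.40. Myf6, the myogenic factor of mature fibres, ran the other way, with 53.7, 53.9, 59.3 and 54.2 CPM in the inhibitor libraries, against 50.4, 42.6, 40.6 and 42.1 CPM in the placebo libraries, and no overlap.

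Atrophy genes were split between the directions. Of 32 tested, 15 were higher and 17 lower, and the median was -0.04. At an unadjusted p under 0.05 there were 3 higher and 5 lower (5.82% and 9.03% of all genes). The ubiquitin ligase Trim63 had 179.5, 148, 111 and 155 CPM in the inhibitor libraries, against 249.2, 140.2, 183 and 212 CPM in the placebo libraries. Fbxo32, the other main atrophy ligase, had 591, 517, 212 and 336 CPM with the inhibitor and 781, 314, 376 and 730.0 CPM with placebo. Both overlapped between groups, at -0.40 ± 0.21 for Trim63 and -0.41 ± 0.35 for Fbxo32, and at -0.63 ± 0.25 and -0.86 ± 0.39 without the Prg4-high libraries. Myostatin (Mstn), the secreted brake on muscle growth, differed by 0.03 ± 0.24. Of 31 proteasome subunits 26 were lower, with a median of -0.04. Metallothioneins Mt1 and Mt2, induced by glucocorticoids and metals, were at -0.94 ± 0.33 and -2.29 ± 0.68 with all libraries, with placebo 2 and 3 highest for both, and at -0.52 ± 0.30 and -1.04 ± 0.44 without the Prg4-high ones. Of 24 genes of the IGF axis and growth signalling 9 were higher and 15 lower. At an unadjusted p under 0.05 there were 0 and 3 of them (5.82% and 9.03% of all genes). Their median was -0.08, and -0.06 without the Prg4-high libraries. Those lower included Igf2, at -1.47 ± 0.45 and at -0.05 ± 0.17 without the Prg4-high libraries, and the binding protein Igfbp3. Igfbp3 had 15.3, 14.4, 20.7 and 16.6 CPM with the inhibitor and 27.5, 25.8, 29.4 and 19.7 CPM with placebo, where placebo 4 lay below inhibitor 3.

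Fibre type genes varied widely within groups. Myh1, the fast IIx myosin, had 9622, 7993, 8975 and 6373 CPM in the inhibitor libraries, against 6056, 3209, 3204 and 6339 CPM in the placebo libraries. The groups did not overlap, inhibitor 4 and placebo 4 were nearly equal, and the difference was 0.81 ± 0.27, and 0.41 ± 0.26 without the Prg4-high libraries. Myh4, the fast IIb myosin, had 46505, 45819, 41805 and 59447 CPM with the inhibitor and 30458, 42707, 46093 and 67412 CPM with placebo. Myh7, the slow myosin, spanned 50.9 to 1546 CPM with the inhibitor and 18.0 to 1510.5 CPM with placebo. Of 18 slow-twitch genes 16 were higher, 0 at an unadjusted p under 0.05, with a median of 0.47. Without the Prg4-high libraries all 18 were higher, still 0 at an unadjusted p under 0.05, and the median was larger. Their summed level was 3302 to 8064 CPM with the inhibitor and 2579 to 5843 CPM with placebo. It fell from inhibitor 1 to inhibitor 4, as did that of nuclear oxidative phosphorylation genes. Placebo 4 was lowest for slow-twitch genes but above placebo 2 and 3 for oxidative phosphorylation genes. The part of fibre type in the higher oxidative genes was not tested.

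In the clock genes placebo 2 and 3 did not stand apart from the other placebo libraries. The circadian clock is a feedback loop present in muscle fibres: ARNTL (BMAL1) and CLOCK switch on Per and Cry genes, whose proteins then repress them. The levels of these genes swing over the day, and the labels give no hour of collection for any library. Many of these genes carry E-boxes, the sites bound by BMAL1 and CLOCK, or D-boxes, bound by DBP and its relatives, before their start. The 250 bases before the start of 4 clock genes whose groups did not overlap are printed for this reason, from RefSeq on GRCm38.p6, 5′ to 3′ on the gene's strand. Capitals mark E-boxes (CACGTG) and D-boxes (TTATGTAA), searched on both strands.
Cry1 promoter, chr10:85185055-85185304, minus strand: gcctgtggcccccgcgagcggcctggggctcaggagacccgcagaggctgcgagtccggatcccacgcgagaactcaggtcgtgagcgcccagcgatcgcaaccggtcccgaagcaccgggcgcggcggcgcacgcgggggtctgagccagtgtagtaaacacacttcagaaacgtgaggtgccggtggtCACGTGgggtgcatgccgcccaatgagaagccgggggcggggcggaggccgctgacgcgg
Per1 promoter, chr11:69098699-69098948, plus strand: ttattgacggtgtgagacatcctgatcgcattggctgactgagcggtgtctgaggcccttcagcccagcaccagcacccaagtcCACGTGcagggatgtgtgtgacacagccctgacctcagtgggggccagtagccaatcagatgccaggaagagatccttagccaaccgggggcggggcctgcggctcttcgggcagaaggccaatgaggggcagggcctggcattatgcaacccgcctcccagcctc
Ciart promoter, chr3:95882229-95882478, minus strand: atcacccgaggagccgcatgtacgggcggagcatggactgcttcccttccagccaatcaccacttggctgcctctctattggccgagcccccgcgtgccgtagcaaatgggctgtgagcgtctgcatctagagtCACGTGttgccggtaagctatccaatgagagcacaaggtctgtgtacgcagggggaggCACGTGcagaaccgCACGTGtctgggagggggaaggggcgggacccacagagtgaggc
Per3 promoter, chr4:151044666-151044915, minus strand: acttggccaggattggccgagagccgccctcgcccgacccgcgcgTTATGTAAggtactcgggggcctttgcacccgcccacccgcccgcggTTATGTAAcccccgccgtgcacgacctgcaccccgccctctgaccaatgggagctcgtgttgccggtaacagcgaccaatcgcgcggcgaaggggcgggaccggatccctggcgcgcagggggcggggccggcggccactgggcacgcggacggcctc
Cry1 and Per1 each had 1 E-box here, Ciart had 3, and Per3 had 2 D-boxes, at 205 and 158 bases before its start. Among all 32851 RefSeq promoters of this length, 6.02% held such an E-box and 0.819% such a D-box. These shares count single promoters, while the counts that follow take any promoter of a gene. Of the 8 clock genes whose groups did not overlap, 6 had a RefSeq promoter and 4 of these an E-box. Of all 16 clock genes with a promoter, 5 had an E-box. Per1 and Tef have 2 promoters each, and the second one of Per1 held none. The 4 printed promoters were picked with a motif, and that of Cry2, also without overlap, held none. A match is a description of the letters and not of binding.

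Of 19 clock genes 7 were higher and 12 lower (46.9% and 53.1% of all genes). At an unadjusted p under 0.05 there were 3 higher and 9 lower (5.82% and 9.03% of all genes). Groups did not overlap in 1 higher and 7 lower (2.77% and 2.87%). The median was -0.40, and -0.47 without the Prg4-high libraries. There 1 higher and 10 lower had an unadjusted p under 0.05 (3.28% and 3.05% of all genes). Of the clock genes described below, Per3, Cry2, Ciart, Tef, Nr1d2, Dbp, Arntl and Nfil3 were chosen after their values were seen. Other members of the list are not described singly, among them a higher gene with an unadjusted p under 0.05. The Per genes were lower. Per1 had 19.0, 7.73, 16.1 and 17.5 CPM in the inhibitor libraries, against 32.7, 33.4, 35.3 and 53.6 CPM in the placebo libraries. Per2 had 3.49, 2.91, 2.56 and 1.74 CPM with the inhibitor and 4.92, 5.82, 7.26 and 11.5 CPM with placebo. Per3 had 12.4, 18.6, 11.5 and 13.2 CPM with the inhibitor and 20.1, 24.9, 24.5 and 42.6 CPM with placebo. In all 3 every placebo library was above every inhibitor library, with placebo 4 the highest, and the differences were -1.36 ± 0.27, -1.47 ± 0.35 and -1.01 ± 0.27 (adjusted p of 0.145 to 0.204, edgeR). Leaving out the Prg4-high libraries gave -1.51 ± 0.34, -1.62 ± 0.38 and -1.17 ± 0.36.

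The Cry genes split. Cry1 had 22.1, 19.5, 26.1 and 23.5 CPM in the inhibitor libraries, against 13.05, 10.5, 11.8 and 13.8 CPM in the placebo libraries, a difference of 0.89 ± 0.17. Cry2 had 30.2, 26.2, 26.9 and 29.1 CPM with the inhibitor and 34.0, 35.1, 38.6 and 47.3 CPM with placebo, a difference of -0.46 ± 0.13. Neither pair of groups overlapped. Of other repressors and outputs, Bhlhe40, Ciart, Tef and Nr1d2 were lower. Bhlhe40, a repressor at E-boxes, had 99.8, 99.5, 81.4 and 107 CPM with the inhibitor and 147, 146, 122 and 167 CPM with placebo. Ciart, a repressor of CLOCK and BMAL1, differed by -1.96 ± 0.55, with inhibitor 3 close to the limit of detection, and Tef, a D-box factor, by -0.45 ± 0.16. Nr1d2, the REV-ERB beta receptor, had 91.7, 113, 86.6 and 78.7 CPM with the inhibitor and 114, 104, 126 and 142 CPM with placebo, where inhibitor 2 lay inside the placebo range.

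Placebo 1 stood apart from the other placebo libraries in 3 clock genes. Dbp, a D-box activator with a strong daily rhythm, had 6.31, 14.8, 7.39 and 8.69 CPM in the inhibitor libraries, against 13.4, 75.9, 105 and 114 CPM in placebo 1 to 4. Arntl, the activator of the loop, had 36.0, 26.99, 36.8 and 40.6 CPM with the inhibitor and 28.2, 16.4, 15.8 and 14.5 CPM with placebo. Nfil3, a D-box repressor, had 57.5, 36.0, 48.1 and 65.6 CPM with the inhibitor and 50.3, 18.6, 12.6 and 11.8 CPM with placebo. In each, placebo 1 had a level inside the range of the inhibitor libraries, while placebo 2, 3 and 4 were apart from that range on the same side. The hour of collection and the treatment cannot be told apart in these data.

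**Figure D4:**
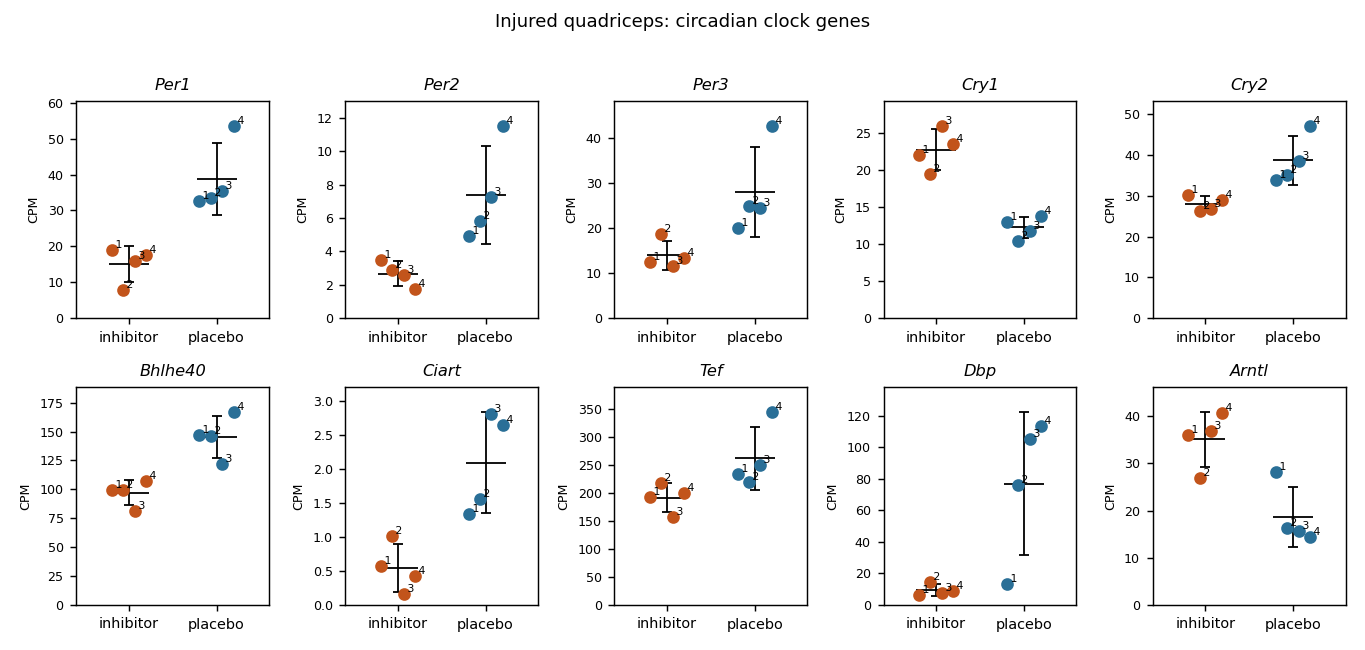
CPM of 10 clock genes in the injured inhibitor libraries (orange, left) and injured placebo libraries (blue, right), numbered by replicate, with mean and SD. Per1, Per2, Per3, Cry2, Bhlhe40, Ciart and Tef were lower and Cry1 higher in every inhibitor library, and placebo 1 lies with the inhibitor libraries for Dbp and Arntl.

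Lists of matrix, tendon, cell division and ribosomal genes had medians of the opposite sign without the Prg4-high libraries. So did adipocyte markers (0.27 and -0.31), cytokines (-0.45 and 0.06), joint markers (-0.47 and 0.13) and mast cell markers (0.09 and -0.11). Adipocyte markers were higher in 13 of 16 with all libraries and in 2 of 17 without the Prg4-high ones. Of 48 matrix and remodelling genes 47 were lower (53.1% of all genes), with a median of -1.10. Only 3 were lower at an unadjusted p under 0.05, where 9.03% of all genes were. When the Prg4-high libraries were left out 37 of 48 were higher, with a median of 0.28. Summed, they were at 2375, 2001, 3238 and 2189 CPM in the inhibitor libraries, against 2013, 10940, 7544 and 2192 CPM in the placebo libraries. Col1a1, the chain of type I collagen, had 95.8, 85.7, 208 and 87.1 CPM with the inhibitor and 44.2, 1469, 656 and 68.7 CPM with placebo. It differed by -2.23 ± 1.34 with all libraries and by 1.08 ± 0.67 without the Prg4-high ones. Tendon markers were lower in 13 of 13 with all libraries and in 2 of 13 without the Prg4-high ones, with medians of -0.38 and 0.30. DNA replication and mitosis genes had 22 of 24 lower, 13 at an unadjusted p under 0.05 (53.1% and 9.03% of all genes), with a median of -1.33. Without the Prg4-high libraries 14 of 21 were higher, with a median of 0.19. Mcm4, a subunit of the replicative helicase whose groups did not overlap, was at 3.78, 5.03, 3.22 and 4.24 CPM with the inhibitor and 7.19, 8.83, 6.7 and 5.33 CPM with placebo, and differed by -0.62 ± 0.22 without those libraries. Of 45 ribosomal protein genes 42 were lower with all libraries and 9 without the Prg4-high ones, with medians of -0.20 and 0.13; these genes have many near-identical copies. Fibro-adipogenic progenitor markers were lower in 16 of 17 with all libraries, 0 at an unadjusted p under 0.05, with a median of -0.31, and higher in 9 of 17 without the Prg4-high ones, with a median of 0.02. Pdgfra, their defining receptor, differed by -0.47 ± 0.30, and by -0.23 ± 0.26 without the Prg4-high libraries.

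**Figure D5:**
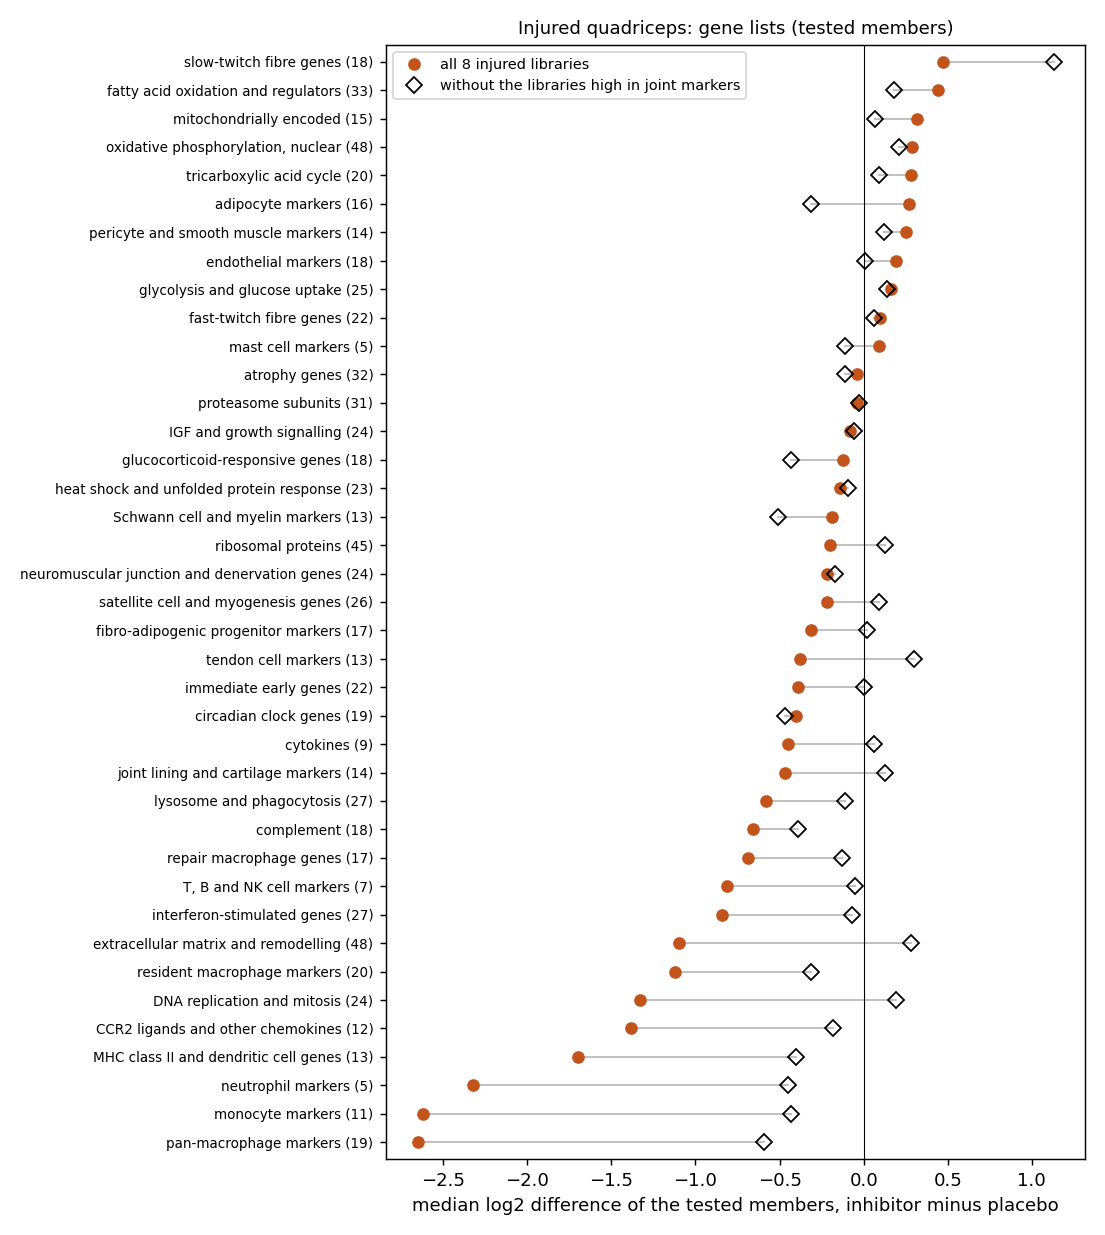
Median log2 difference, inhibitor minus placebo, of the tested members of each gene list with at least 5 of them (number in brackets), over all 8 injured libraries (orange circles) and without the Prg4-high libraries (open diamonds). Pan-macrophage markers had -2.65 and -0.59, matrix genes -1.10 and 0.28, and clock genes -0.40 and -0.47.

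In the healthy quadriceps, read as the other leg of the same mice, clock genes had a median difference like that of the injured leg. Of the 19 clock genes 3 were higher and 10 lower there at an unadjusted p under 0.05 (1.3% and 2.03% of all genes), 6 were higher and 13 lower in sign (46% and 54% of all genes), and the median was -0.39. No gene passed an adjusted p of 0.05 for the difference between the inhibitor effects in injured and healthy quadriceps (edgeR, smallest adjusted p 0.998, 423 genes or 2.74% at an unadjusted p under 0.05, 49.5% positive and 50.5% negative). In healthy quadriceps edgeR called 0 genes and DESeq2 12, with 514 genes (3.34%) at an unadjusted p under 0.05. Per1 differed there by -1.17 ± 0.27, Per2 by -1.51 ± 0.35, Bhlhe40 by -0.58 ± 0.12 and Vgll2 by 0.84 ± 0.17. For Vgll2 the injured minus healthy difference was 0.18 ± 0.23 and for Per2 0.05 ± 0.48. Apod, by contrast, was at 0.20 ± 0.14 in healthy and -0.64 ± 0.14 in injured quadriceps, an injured minus healthy difference of -0.84 ± 0.20, which did not pass adjustment (adjusted p = 0.998, edgeR). Kcnc1 had an injured minus healthy difference of 0.44 ± 0.14, Apobec3 of -1.23 ± 0.38, Hivep1 of 0.41 ± 0.10 and Fam124a of -1.14 ± 0.32. Apod and these genes were chosen by their injured values, which also enter this difference. The choice favours a large difference, so its size here is no evidence of an effect particular to injured quadriceps. Oxidative phosphorylation genes had a healthy median of 0.06 and interferon-stimulated genes a healthy median of -0.02. For the injured minus healthy difference, 5 of the 48 and 6 of the 27 had an unadjusted p under 0.05 (2.74% of all genes). These counts come from the fit with all libraries. Without the Prg4-high libraries the injured median of interferon-stimulated genes went from -0.84 to -0.07, and that of oxidative phosphorylation genes from 0.29 to 0.21. Both legs were taken to come from the same mice, so the healthy values are no independent repeat. The edgeR fit treated the 2 legs of a mouse as separate libraries. The SE and p of each injured minus healthy difference therefore ignore the pairing. The limma-voom fit with the correlation within animals also called 0 genes for this difference.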

How the data were processed

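RNA was taken from skeletal muscle with TRIzol and a column kit and sequenced by a service company, per the labels. The deposited table holds expected counts per gene, since 24.2% of its values lie more than 0.01 from a whole number, and no gene has a highest count below 10. The submitters' processing notes name STAR, Partek and DESeq2, with GRCm38 and mm10, without versions or roles; whether counting used strand is not given in the sources used here. Counts were rounded to whole numbers. Of 17370 genes 17338 matched a symbol in GENCODE M21, 32 did not, and 15 symbols occurred more than once.

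Genes were filtered with filterByExpr (minimum count 10), which left 15411, scaled by TMM and fitted with 4 group means over 16 libraries by the quasi-likelihood test of edgeR 4.0.16 in R 4.3.3 (common coefficient of variation 0.284, 12 residual degrees of freedom, Benjamini-Hochberg over all tested genes). The SE is the log2 difference divided by the root of F. Levels are CPM computed from these counts. Members, 40 gene lists (839 genes, 814 in the table) and the comparisons were chosen with earlier results of these data known. The genes named are the 12 higher and 12 lower with the smallest p, groups that do not overlap and a mean log2 CPM of at least 1, the 3 members of each list with the smallest p, and a panel of 20. Of 97 genes open to the text, 86 come from this rule and 11 were chosen after their values were seen (Dbp, Cry2, Per3, Ciart, Nr1d2, Mertk, Ppargc1a, Arntl, Tef, Cd163 and Nfil3). The labels call the libraries biological replicates without naming cages or days, and each p-value reflects the variation among these libraries. Alternatives were DESeq2 1.42.0, limma 3.58.1 (voom with quality weights, and with the correlation within animals), size factors of DESeq2, no filter, the 8 injured libraries alone, the replicate block, leaving out each library, and leaving out the 4 Prg4-high libraries. The scripts were tested on simulated data. Promoters were searched in Python 3.11.15, and figures drawn with matplotlib 3.10.9.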

Additional observations from a re-analysis of the deposited data

Results flagged for a closer look

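Of 282 groups of 4 values checked, 6 held a library far from the other 3; chance flags about 1 in 20 groups, or 14.1 here. Adgre1 had 0.212 CPM in injured inhibitor 2, against 1.99 to 2.6 CPM in the other inhibitor libraries. Injured inhibitor 3 stood apart 3 times, with Cd63 at 26.1 CPM (the others 30.9 to 31.2), Myf6 at 59.3 CPM (53.7 to 54.2) and Col1a1 at 208 CPM (85.7 to 95.8). Injured placebo 4 stood apart in Per1, with 53.6 CPM against 32.7 to 35.3 CPM in the other placebo libraries, and in Cxcl10, with 0.168 CPM against 2.76 to 3.44 CPM.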

How the results depend on the processing

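The count of genes past an adjusted p of 0.05 in injured quadriceps was 0 in edgeR with all libraries and 248 with DESeq2, 1229 with voom quality weights, 1 with the replicate block (Nuak1, log2 0.74, adjusted p = 0.00296, edgeR) and 0 with the correlation within animals. Leaving out 1 library gave 0 to 39 (39 without placebo 4); in healthy quadriceps DESeq2 called 12 and leaving out 1 injured library gave 0 to 1. Replicate numbers do not pair the groups: same-numbered inhibitor and placebo libraries had correlations of 0.04, -0.04, 0.25 and 0.21, and 1 of 4 matched its own number best. Genes at an unadjusted p under 0.05 numbered 1797 higher and 2495 lower with quality weights, 908 lower with the correlation within animals, 517 higher and 482 lower without the Prg4-high libraries, and 683 to 1961 lower (683 without placebo 2) with 1 library left out. Without the Prg4-high libraries the sign turned for Csf1 (0.21), Lgals3 (0.02), Irf7 (0.02), Myh4 (-0.01), Myh8 (0.16), Myog (0.20), Ncam1 (0.26), Mstn (-0.33), Col1a1 (1.08), Prg4 (0.21) and Junb (0.03), and the difference in genes detected was 30.5 and in the share of the 10 most abundant genes -0.502 percentage points. With 1 library left out Myh4 ran from -0.09 to 0.29 (-0.05 without inhibitor 4), Mstn from -0.10 to 0.25 (-0.05 without inhibitor 4) and total counts from -1.26 to 0.117 M. The causes were not tested. With 4 libraries a group, genes of low count are the least precise.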

Other observations

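Among immediate early genes, Nr4a3, a nuclear receptor induced by contraction and nerve input, had 22.03, 8.04, 11.98 and 4.07 CPM in the injured inhibitor libraries, against 2.77, 3.38, 1.84 and 3.11 CPM in the injured placebo libraries. The groups did not overlap, and the log2 difference was 2.05 ± 0.57 with all libraries (adjusted p = 0.216 over all genes, edgeR). Without the Prg4-high ones it was 1.97 ± 0.73. The list as a whole had 18 of 22 members lower and a median of -0.39, and 0 without the Prg4-high libraries. Junb, a partner of FOS, had 7.46, 5.4, 6.07 and 7.72 CPM with the inhibitor and 5.85, 29.5, 18.5 and 7.22 CPM with placebo, so that placebo 2 and 3 held the high values. Vessel markers were higher in 14 of 18, with a median of 0.19 and one of 0.01 without the Prg4-high libraries, and Notch3, a receptor of pericytes, differed by 0.29 ± 0.11.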
